A study of Mus musculus with 2 samples.

Results

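The genes of the major histocompatibility complex (MHC, named H2 in the mouse) and their partners in antigen presentation were compared between a library labelled Nr4a-deficient and a wild-type library. Members were all array rows that were not control spots and whose gene name began with H2- or was Cd74, Ciita, B2m, Tap1, Tap2, Tapbp, Nlrc5 or Erap1. This gave 49 of 30119 gene names, read by 64 of 39429 probes on 91 of 43020 gene spots. Of the 49 genes, 12 belong to class II, 35 to class I and 2, H2-Ke2 and H2-Ke6, lie in the region but belong to neither class.

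The cells were regulatory T (Treg) cells, CD4 T cells that restrain immune responses, sorted from mice 5 weeks old. The library labelled Nr4a-deficient came from mice described as Nr4a-TKO, and the other came from wild-type mice. The Nr4a family holds the nuclear receptor genes Nr4a1, Nr4a2 and Nr4a3. The deleted part of each gene, the promoter of any Cre driver, the tissue, the sort markers, the strain and the number of animals are not given in the sources used here. Both libraries were read on single-colour Agilent arrays, 1 each, that shared a slide and a scan.

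With 1 array per genotype no difference has a replicate check, so no test was made and no p-value is given. Signals are the deposited background-subtracted intensities of each array, and the wild-type array was brighter (75th percentile 1762 for the Nr4a-deficient label, against 2047 for wild-type). Each signal was therefore divided by its array's 75th percentile before a fold or a log2 difference (Nr4a-deficient label minus wild-type) was taken. A gene counted as higher or lower from a 2-fold difference. Across all 18540 genes well above background on at least 1 array, 4.7% were higher and 4.94% lower in the library labelled Nr4a-deficient. The median difference was 0. Scaled to 8 spike-in RNAs instead, every difference was lower by 0.37 on the log2 scale. The SD of the log2 difference between spots of 1 probe on 1 array was 0.0796 in the library labelled Nr4a-deficient, against 0.0663 in wild-type, for probes with a scaled log2 level of 1 to 5. For probes under -3 it was 0.562 in the library labelled Nr4a-deficient, against 0.515 in wild-type.

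The probes of the targeted genes did not show the loss that the label names. Nr4a1 gave a signal of 80407 in the library labelled Nr4a-deficient, against 51441 in wild-type. Nr4a2 gave 3134 in the library labelled Nr4a-deficient, against 1850 in wild-type, and neither array detected Nr4a3. Whether these probes lie inside the deleted parts is not known here, so each direction below is that of the library labelled Nr4a-deficient. All 10 genes of a T cell list were above background on both arrays, with a median difference of 0.018, while the Treg factor Foxp3 was dim at 74.5 in the library labelled Nr4a-deficient, against 85.4 in wild-type. The other Treg markers, Il2ra, Ctla4, Ikzf2 and Tnfrsf18, gave 16618, 5923, 23816 and 32729 in the library labelled Nr4a-deficient. In wild-type they gave 46649, 6384, 31397 and 69169. Signals of different probes are not comparable between genes.

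MHC class I molecules pair a heavy chain with beta-2 microglobulin and show peptides from the cell's own proteins, made by the proteasome and carried into the endoplasmic reticulum by the Tap1-Tap2 transporter, to CD8 T cells. Class II molecules are pairs of an alpha and a beta chain that show peptides from endosomes to CD4 T cells. Their chains assemble on the invariant chain Cd74, and H2-DM then exchanges its remnant for peptide, while H2-O holds H2-DM back. Class II genes are switched on together by the coactivator Ciita, which is recruited by factors bound at the X and Y boxes of their promoters. Mouse T cells are known to make little class II, in contrast to B cells, dendritic cells and macrophages, whereas nearly all nucleated cells make class I.

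The promoters of 7 class II genes are shown because their Y box core, GATTGG, can be read directly beside the array values. Each line gives the core in capitals with 40 bases before and 10 after it, on the strand of the gene, from RefSeq's promoter table of build GRCm38.p6.
H2-Aa: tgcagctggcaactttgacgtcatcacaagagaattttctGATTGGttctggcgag
H2-Eb1: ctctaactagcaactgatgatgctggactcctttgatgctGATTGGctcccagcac
H2-Eb2: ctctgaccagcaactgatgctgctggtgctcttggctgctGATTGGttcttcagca
H2-DMb1: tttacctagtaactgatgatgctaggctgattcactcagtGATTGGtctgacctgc
H2-DMb2: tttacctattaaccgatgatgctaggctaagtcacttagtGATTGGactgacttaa
H2-Ob: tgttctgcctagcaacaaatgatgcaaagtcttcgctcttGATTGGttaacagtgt
H2-Oa: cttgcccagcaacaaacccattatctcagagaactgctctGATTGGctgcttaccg

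These windows lie at chr17:34287857-34287912 on the minus strand for H2-Aa and on the plus strand for the others, at chr17:34305767-34305822 for H2-Eb1, chr17:34325534-34325589 for H2-Eb2, chr17:34153089-34153144 for H2-DMb1, chr17:34145118-34145173 for H2-DMb2, chr17:34238807-34238862 for H2-Ob and chr17:34092295-34092350 for H2-Oa. Counted from the annotated start, the motif began at positions from -101 (H2-Eb2) to -44 (H2-Oa). Promoter entries of 300 bases, 250 before to 50 after the start, were found for 8 of the 12 class II genes, and GATTGG stood on the sense strand in all 8. H2-DMa held it only in the entry of its second start. For comparison, 8.71% of 32851 mouse promoter entries held GATTGG on the sense strand and 16.1% on either strand. The letters TGATG, a part of the X box, stood 15 to 26 bases before GATTGG (start to start, no overlap) in 5 of the 8 genes, H2-Eb1, H2-Eb2, H2-DMb1, H2-DMb2 and H2-Ob, against 0.161% of all entries on the sense strand and 0.271% on either strand. That spacing was chosen after the sequences were seen, and a match is a description of letters, not of binding.

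Class II genes were higher as a group in the library labelled Nr4a-deficient. Of the 11 class II genes above background on at least 1 array, 8 were at least 2-fold higher and none was lower. The other 3 were within 2-fold. Over all genes, 4.7% were higher and 4.94% lower. The 8 include H2-DMb2, whose wild-type signal did not pass background. Where both arrays had to pass, 7 of 10 class II genes were at least 2-fold higher and none was lower. The median log2 difference of the 11 was 1.53, against 0 over all genes, and single genes lay between -0.14 and 2.16. In sorted bulk cells, fewer cells of a type and less RNA per cell cannot be told apart. The main chains of the A and E molecules had the highest values of the group and the H2-O chains the lowest.

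The chains that bind peptide were higher on every probe that passed background. H2-Aa, the alpha chain of the A molecule, gave 7315 in the library labelled Nr4a-deficient, against 1907 in wild-type, 4.46-fold higher after scaling (log2 difference 2.16; chr17:34421285-34421344, mm9). H2-Ab1, its beta chain, gave 68599.7 in the library labelled Nr4a-deficient, against 19416 in wild-type, 4.10-fold higher (2.04; chr17:34406296-34406355). The E molecule's beta chain H2-Eb1 gave 64165 in the library labelled Nr4a-deficient, against 18822 in wild-type, 3.96-fold higher (1.99; chr17:34453075-34453134). Both chains of the A molecule therefore differed by about the same factor. H2-Eb2, a further beta chain gene, was dim, with 289 in the library labelled Nr4a-deficient, against 116 in wild-type, 2.89-fold higher (1.53; chr17:34476934-34476993), and after normexp background correction and quantile normalization its difference was 0.93, under 2-fold. H2-Ea-ps, the alpha gene of the E molecule as the array names it, stayed at background, with 14.0 in the library labelled Nr4a-deficient, against 19.6 in wild-type. Only 260 of the 18540 genes had a higher difference than H2-Aa, 299 than H2-Ab1 and 314 than H2-Eb1.

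H2-Ab1 was measured by 2 probes that overlap over 51 bases and differ in 1 of them, so they are not independent measures of the gene. The 30 bases around the difference are printed because the probes could read different alleles unequally. The base that differs, T21C counted from 1 at the 5′ end of the printed window, is in capitals. The probe with C lies at chr17:34406305-34406363 in mm9.
H2-Ab1 probe with T: agattacaaataaacgagacTcagactctg
H2-Ab1 probe with C: agattacaaataaacgagacCcagactctg

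The probe with C gave 67437 in the library labelled Nr4a-deficient, against 18441 in wild-type, 4.25-fold higher (2.09), close to the 2.04 of the probe with T. H2-Aa was read by 1 probe of 60 bases, printed because no other probe checks the highest class II difference.
H2-Aa probe: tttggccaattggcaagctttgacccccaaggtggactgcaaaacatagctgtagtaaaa

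**Figure D1:**
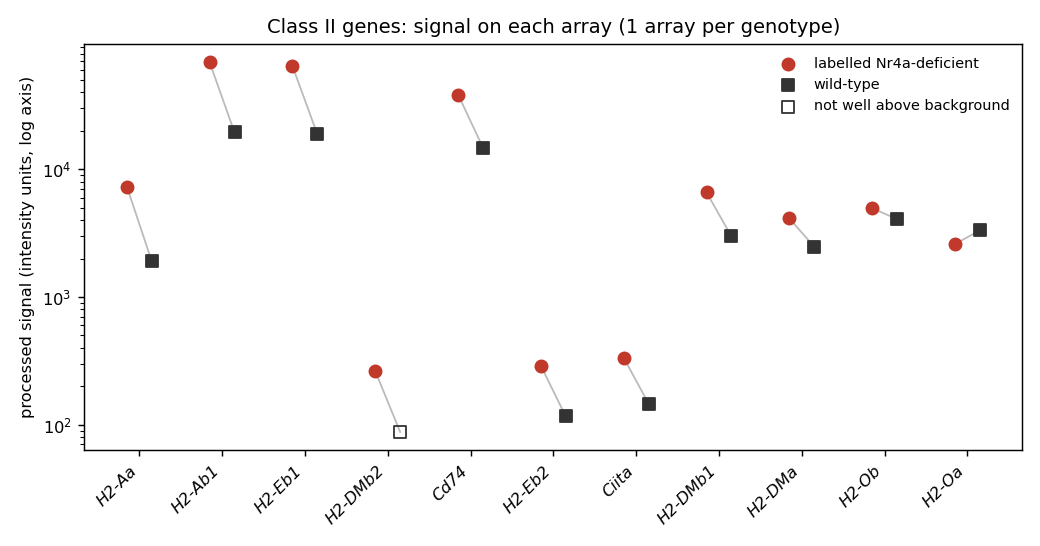
Processed signal (intensity units before scaling, log axis) of the 11 class II genes above background, with the point of the library labelled Nr4a-deficient left of the wild-type point and an open point where the signal was not well above background. All of them except H2-Oa sit higher in the library labelled Nr4a-deficient. Each gene has its own probe, so heights are not comparable between genes.

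The invariant chain Cd74, which blocks the groove of new class II molecules and steers them to endosomes, gave 38397 in the library labelled Nr4a-deficient, against 14788 in wild-type, 3.02-fold higher (1.59). The activator Ciita gave 334 in the library labelled Nr4a-deficient, against 146 in wild-type, 2.66-fold higher (1.41; chr16:10526568-10526627, mm9). Ciita was thus higher together with the genes it is known to activate, at a dim signal on both arrays. After normexp background correction and quantile normalization its difference was 0.89, under 2-fold. Its probe shares runs of 26, 22 and 20 bases with probes named Odz1, Cbln2 and Prg4, and other hybridising RNA was not tested.

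Of the 3 chain genes of the peptide editor H2-DM, 2 passed 2-fold. H2-DMb1 gave 6592 in the library labelled Nr4a-deficient, against 2986 in wild-type, 2.56-fold higher (1.36; chr17:34297109-34297168), and 0.99, just under 2-fold, on the spike-in scale. H2-DMb2 gave 262 in the library labelled Nr4a-deficient, against 87.7 in wild-type, where it was not well above background, so it was at least 3.47-fold higher with this scaling (log2 bound 1.80; chr17:34284764-34284823). After normexp background correction and quantile normalization that value was 1.06. H2-DMa, the alpha chain, gave 4125 in the library labelled Nr4a-deficient, against 2473 in wild-type, a difference of 0.95 that lies just under 2-fold (chr17:34274300-34274863).

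The H2-O chains, which form the inhibitor of H2-DM, were not among the higher genes. H2-Ob gave 4946 in the library labelled Nr4a-deficient, against 4076 in wild-type on its brightest probe, a difference of 0.50, and on another probe 3229 in the library labelled Nr4a-deficient, against 2347 in wild-type, a difference of 0.68. A further H2-Ob probe was not above background on either array. H2-Oa gave 2593 in the library labelled Nr4a-deficient, against 3322 in wild-type, a difference of -0.14 (chr17:34232033-34232092). H2-Oa was the only class II gene above background with a value under 0.

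For bright genes a 2-fold difference was rare between these arrays. Of 1742 genes with a mean scaled log2 level of 3 to 5 measured on both arrays, 9 (0.517%) passed 2-fold upward in the library labelled Nr4a-deficient and 14 downward. H2-Ab1, H2-Eb1 and Cd74 were 3 of those 9. Dim genes passed 2-fold more often, with 4.57% higher among the 2383 genes whose mean level was under -3, which is the range of H2-Eb2 and Ciita.

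**Figure D2:**
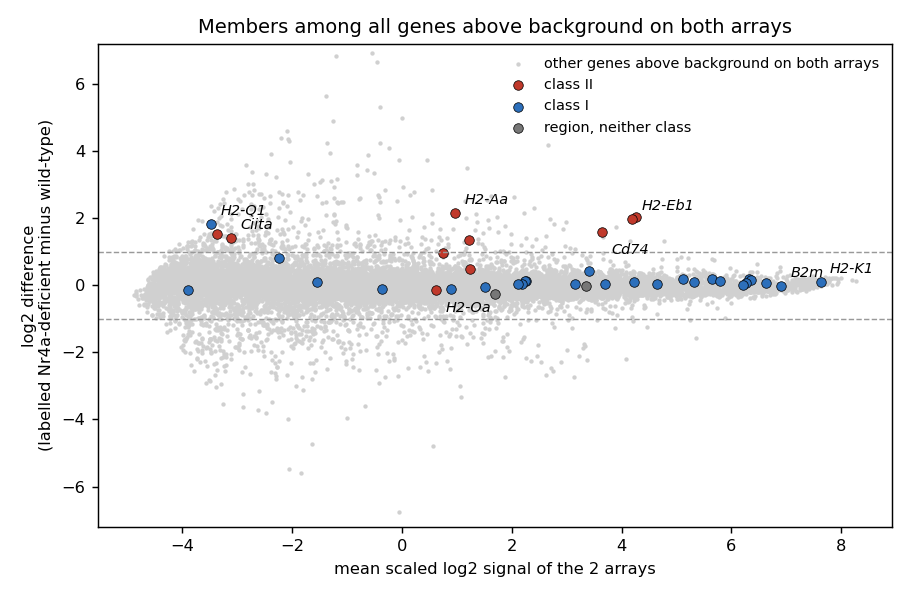
Log2 difference (Nr4a-deficient label minus wild-type) against the mean scaled log2 level of genes above background on both arrays, with class II and class I members coloured. Class II genes other than H2-Ob and H2-Oa stand at 0.95 or more, while class I genes such as H2-K1 (0.11) and B2m (-0.0048) lie near 0, and below it on the spike-in scale.

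Class I genes did not share this shift. Of 29 class I genes above background on at least 1 array, 1 was at least 2-fold higher, 1 was lower and 27 were within 2-fold, against 4.7% of all genes higher and 4.94% lower, and their median difference was 0.089. With 1 of 29 in each direction the share was near that of all genes. After this scaling 23 of the 29 were above 0 and 6 below, but on the scale of the spike-in RNAs 4 were above 0 and 25 below, so the small differences have no settled direction. The class I values below are read with that limit.

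The heavy chains that present to CD8 T cells were bright and within 2-fold. H2-K1, on 10 spots, averaged 362458 in the library labelled Nr4a-deficient, against 390301 in wild-type, a difference of 0.11 (-0.26 on the spike-in scale). Its spots ranged over 335338 to 394912 in the library labelled Nr4a-deficient and 359358 to 419812 in the wild-type library, and these ranges overlap. H2-D1 gave 180648 in the library labelled Nr4a-deficient, against 198558 in wild-type, a difference of 0.080 (-0.29 on the spike-in scale). H2-K2 is recorded in RefSeq as a non-coding transcript, so it is not counted as a presenting chain here. It gave 139349 in the library labelled Nr4a-deficient, against 152774 in wild-type, a difference of 0.083.

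The partners of the class I heavy chain were also close between the libraries, with differences between -0.055 and 0.18 in all 6. B2m, the shared light chain, gave 211015 in the library labelled Nr4a-deficient, against 245926 in wild-type, a difference of -0.0048. Tap1, on 10 spots, averaged 4943 in the library labelled Nr4a-deficient, against 5963 in wild-type, a difference of -0.055. Tap2, the other chain of the peptide transporter, gave 65105 in the library labelled Nr4a-deficient, against 66646 in wild-type, a difference of 0.18. Both transporter chains are encoded among the class II genes on chromosome 17 and were within 2-fold. Tapbp, the tapasin bridge to the transporter, gave 23074 in the library labelled Nr4a-deficient, against 26177 in wild-type, a difference of 0.034. Erap1, which trims peptides in the endoplasmic reticulum, gave 619 in the library labelled Nr4a-deficient, against 677 in wild-type, a difference of 0.089. The class I coactivator Nlrc5, a relative of Ciita, gave 34260.3 in the library labelled Nr4a-deficient, against 37349 in wild-type, a difference of 0.092, and 0.30 on a dimmer probe. All 6 partners lay below 0 on the spike-in scale.

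Among the nonclassical genes of the Q and T regions, H2-Q1 was the exception. H2-Q1 gave 300.4 in the library labelled Nr4a-deficient, against 97.4 in wild-type, 3.58-fold higher (1.84; chr17:35461859-35461918, mm9), at a dim signal, and after normexp background correction and quantile normalization its difference was 1.15. H2-T3, the thymus leukemia antigen, gave 86.4 in the library labelled Nr4a-deficient, against 18.5 in wild-type, where it did not pass background, at least 1.36-fold higher. The other 12 Q and T genes with a detected probe lay between -0.15 and 0.42. H2-Q8 was the highest of these, with 21566 in the library labelled Nr4a-deficient, against 18743 in wild-type, a difference of 0.42. H2-Q7, a Qa-2 gene, gave 152161 in the library labelled Nr4a-deficient, against 158088 in wild-type, a difference of 0.16. H2-T23, which encodes the Qa-1 molecule that presents class I leader peptides, gave 150936 in the library labelled Nr4a-deficient, against 153938 in wild-type, a difference of 0.19. The remaining genes of both regions were as close. H2-Q2, H2-Q4, H2-Q5, H2-Q6 and H2-Q10 differed by 0.00046, 0.20, 0.13, 0.11 and 0.12, and H2-T9, H2-T10 and H2-T18 by 0.13, 0.050 and -0.15. H2-T24 differed by -0.10 on its brightest probe and by 0.18 on another, so its probes point opposite ways. H2-Bl differed by 0.030.

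The M region held the only lower gene. H2-M10.4, of a family known from the mouse vomeronasal organ, gave 10.72 in the library labelled Nr4a-deficient, not well above background, against 249 in wild-type, at least 4.18-fold lower with this scaling (log2 bound -2.07). After normexp background correction and quantile normalization its value was -1.51. H2-M9 gave 492 in the library labelled Nr4a-deficient, against 327 in wild-type, a difference of 0.81. H2-M3, which presents formylated bacterial peptides, differed by 0.042 and H2-M11 by -0.098. H2-M2 gave unlike answers on its probes. On 10 spots of the brighter probe it averaged 44612 in the library labelled Nr4a-deficient, against 50683 in wild-type, a difference of 0.032, while the dimmer probe gave 1505 in the library labelled Nr4a-deficient, against 563 in wild-type, a difference of 1.63. Another 6 class I genes, H2-M1, H2-M5, H2-M10.1, H2-M10.2, H2-M10.3 and H2-M10.6, were not above background on either array, and together with H2-Ea-ps their signals lay between 11.1 and 41.6 in the library labelled Nr4a-deficient and between 15.9 and 82.9 in the wild-type library.

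Class I heavy chains are alike in sequence, and 8 of the 47 class I probes share a run of at least 20 bases with a probe of another gene name, against 1 of 15 class II probes. The H2-Q7 probe shares the 28 bases printed here with the dimmer of the H2-K2 probes, so those signals are not separate measures of each gene. The brighter H2-K2 probe, whose values are given above, shares no such run with a probe of another gene name. The H2-T23 probe shares 29 bases with the dimmer H2-K1 probe, and the H2-Q6 probe shares 54 bases with the probe of another transcript. The values of H2-T23 and H2-Q6 are therefore not specific to each gene for certain. Probes were compared only with other probes and not with transcripts. A probe without a shared run, such as the brighter H2-K2 probe, is therefore not shown to be specific to its gene either.
H2-K2 and H2-Q7 shared run: tctcctgtgacatccagagccctcagtt

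Many class I promoters held the same letters in the other orientation. Of 24 class I genes on the array with a promoter entry, 16 held GATTGG on either strand, against 16.1% of all promoter entries. In 15 of them it stood only as its reverse complement CCAATC, and in 1, B2m, on the sense strand. TGATG before GATTGG at the spacing given above stood in 3 of the 24, H2-M10.2, H2-M10.3 and H2-M10.4. In all 3 it stood on the opposite strand, against 0.271% of all entries on either strand. Whether these letters act as X or Y boxes was not tested. The windows of H2-D1 (chr17:35263001-35263056, plus strand, GRCm38.p6) and H2-T23 (chr17:36032738-36032793, minus strand) are shown for comparison with the class II promoters above, with CCAATC in capitals. It began at position -53 from the start of H2-D1 and at -52 from that of H2-T23.
H2-D1: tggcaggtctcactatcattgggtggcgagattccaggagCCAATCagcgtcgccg
H2-T23: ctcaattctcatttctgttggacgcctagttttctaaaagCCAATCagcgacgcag

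**Figure D3:**
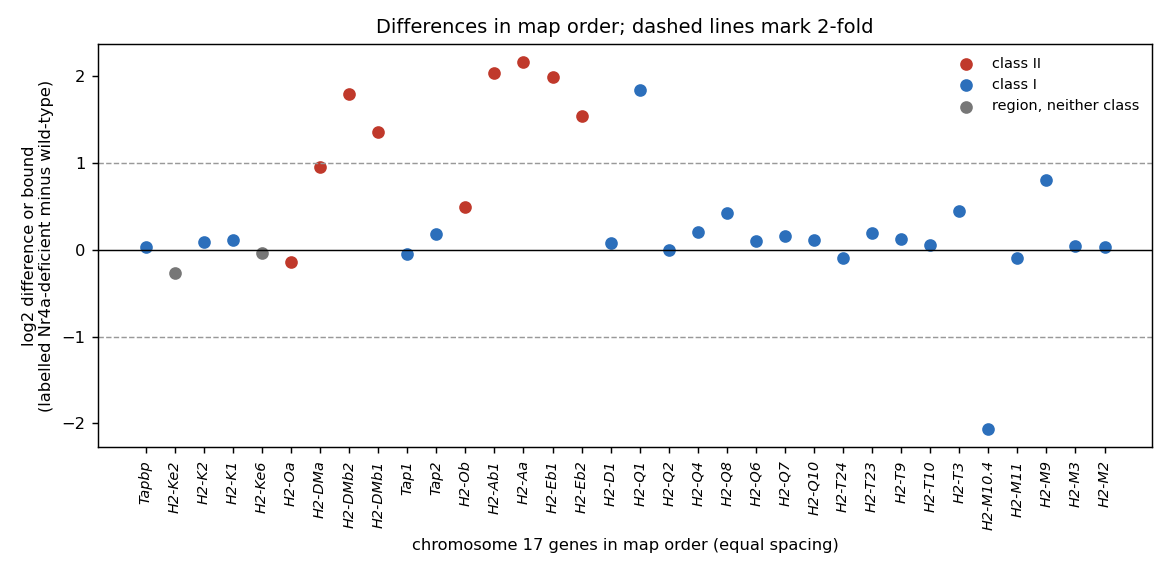
Log2 difference (Nr4a-deficient label minus wild-type) of the detected member genes with a mapped probe on chromosome 17, equally spaced in map order, with class II, class I and other members coloured and bounds for H2-DMb2, H2-T3 and H2-M10.4. The genes at 0.95 or more sit in the class II block, apart from H2-Q1, H2-M10.4 lies at -2.07, and most class I genes lie near 0, with a sign that turns for most of them on the spike-in scale.

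The genes H2-Ke2 and H2-Ke6 of the same region belong to neither class. H2-Ke2, which RefSeq names Pfdn6 for a prefoldin subunit, gave 5228 in the library labelled Nr4a-deficient, against 7324 in wild-type, a difference of -0.27. H2-Ke6 gave 17863 in the library labelled Nr4a-deficient, against 21227 in wild-type, a difference of -0.033.

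Other genes of antigen processing did not share the class II shift. All 32 such genes on the array were detected, with a median of -0.015. Of these, 1 was at least 2-fold higher and 2 were lower, against 4.7% and 4.94% of all genes. The higher gene was Cd40, a receptor that licenses antigen-presenting cells, with 441 in the library labelled Nr4a-deficient, against 245 in wild-type, 2.09-fold higher. The costimulatory ligand Cd86 was 5.37-fold lower, with 954 in the library labelled Nr4a-deficient, against 5953 in wild-type, while Cd80, a ligand of the same receptors, gave 2074 in the library labelled Nr4a-deficient, against 1763 in wild-type, a difference of 0.45. Marchf8, a membrane ubiquitin ligase, was 2.42-fold lower, with 208 in the library labelled Nr4a-deficient, against 583 in wild-type. Rfx5, Rfxap and Rfxank, the subunits of the factor that binds the X box, differed by 0.29, -0.17 and 0.081. The immunoproteasome subunits Psmb8 and Psmb9 differed by -0.17 and -0.19. The endosomal proteases Ctss, which cuts the invariant chain, and Ctsl differed by -0.39 and 0.99.

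Interferon gamma is known to raise Ciita and class I in many cells. A list of its targets, which also holds its receptor chains Ifngr1 and Ifngr2, was therefore set beside the members. All 21 genes of that list were detected, with a median of -0.042. Of these, 2 were at least 2-fold higher and none was lower, against 4.7% and 4.94% of all genes. The 2 were the chemokine Cxcl9, with 599 in the library labelled Nr4a-deficient, against 171 in wild-type (4.07-fold higher), and the transcription factor Irf8, with 23920 in the library labelled Nr4a-deficient, against 8719 in wild-type (3.19-fold higher).

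Markers of other cells that carry class II also differed between the libraries, and their part in the class II differences was not tested. Beside the counts below, 4.7% of all genes were higher and 4.94% lower. Of 15 B cell markers 13 were above background, 4 were at least 2-fold higher and none was lower, with Fcrla 7.67-fold and Cxcr5 2.41-fold higher. Another 9 were within 2-fold, and 3 of them lay under 0, Cr2 at -0.024, Bank1 at -0.058 and Vpreb3 at -0.066. The summed signal of the 15 B cell markers was 42898 in the library labelled Nr4a-deficient, against 26491 in wild-type, a scaled ratio of 1.88. The defining markers Pax5 and Blk were not above background. All 11 plasmacytoid dendritic cell markers were detected and 8 were higher, with Cox6a2 114-fold and Upb1 49.9-fold higher and a median of 2.50. Their summed signal was 224881 in the library labelled Nr4a-deficient, against 203021 in wild-type, a scaled ratio of 1.29. Most of that sum came from Siglech and Pacsin1, which differed by 0.10 and 0.17, so the ratio mainly reflects them and not the higher genes. Irf8 is also a gene of dendritic cells.

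Of 12 conventional dendritic cell markers 10 were above background and 4 were higher, with bounds of at least 49.2-fold for Clec10a and 32.8-fold for Cd209a. Both of these were detected only in the library labelled Nr4a-deficient. Another 6 markers were within 2-fold, and 2 of them lay under 0, Sirpa at -0.58 and Batf3 at -0.076. The summed signal of the 12 markers was 134141 in the library labelled Nr4a-deficient, against 124237 in wild-type, a scaled ratio of 1.25. Most of that sum came from Ccr7 and Itgam, which differed by 0.23 and 0.33. Xcr1 and Fscn1 were not above background. Macrophage and monocyte markers were mostly lower. Of 12 such genes 11 were above background, 7 were lower and 1, Lyz2, was 2.04-fold higher, with Mertk 3.27-fold and C1qc 3.03-fold lower. Their summed signal was 44629.5 in the library labelled Nr4a-deficient, against 107536 in wild-type, a scaled ratio of 0.482, and Vsig4 was not above background. Of 8 thymic epithelial markers 4 were above background, none was higher and Prss16 was lower, while Foxn1, Psmb11, Krt8 and Cldn4 were not above background on either array.

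**Figure D4:**
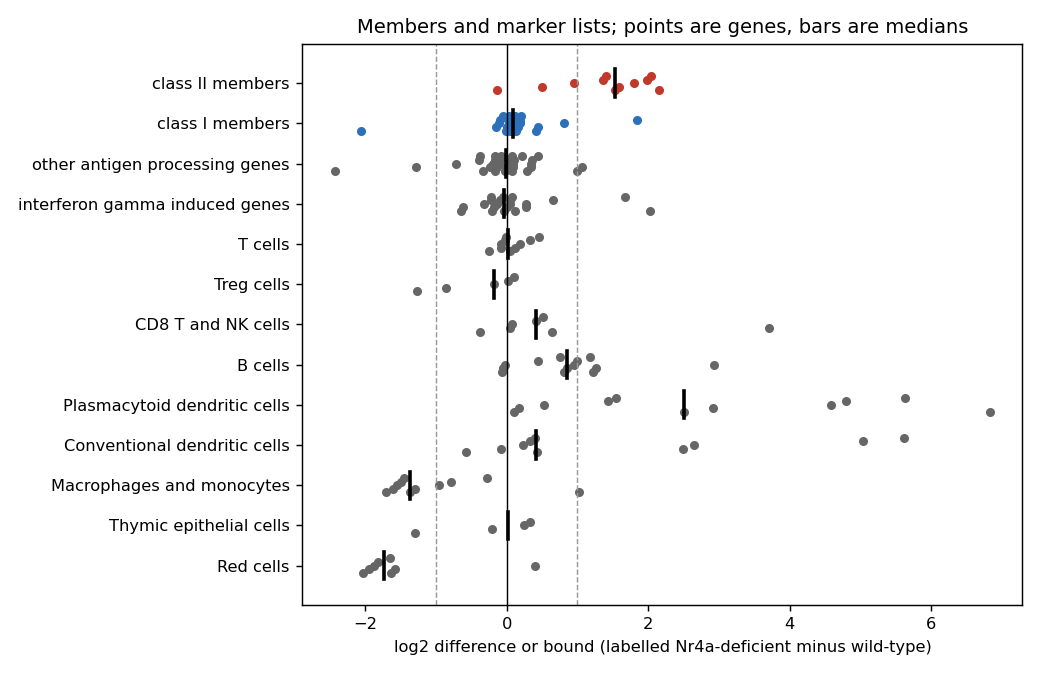
Log2 difference (Nr4a-deficient label minus wild-type) of each detected gene by list, with 1 point per gene and a line at the median of the list. The medians are 1.53 for class II, 0.089 for class I, 0.85 for B cell markers, 2.50 for plasmacytoid dendritic cell markers, 0.42 for conventional dendritic cell markers and -1.36 for macrophage and monocyte markers.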

How the data were processed

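Total RNA of sorted Treg cells, 1 library per genotype, was amplified, labelled with Cy3 and hybridised to 1 array each, per the labels' protocols. The scanner files that the authors deposited give linear intensity values, 1 per spot. Per the file headers, background was subtracted within each array by Agilent Feature Extraction 10.7.3.1. The deposited value table holds intensity values that lay within 1% of the scanner values for 99.6% of probes on either array, with column medians of 143.7 in the library labelled Nr4a-deficient, against 156.8 in wild-type, and was an alternative. Its scale was linear and not centred.

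Outlier spots, 173 in the library labelled Nr4a-deficient, against 209 in wild-type, were left out, and no spot was saturated. Repeated spots were averaged on the log2 scale after the 75th percentile of the array was subtracted (Python 3.11.15, pandas 2.3.3, numpy 2.4.6). The scanner software's call on over 50% of a probe's spots put it above background. A gene was represented by its brightest such probe on at least 1 array. Where 1 array was not above background, the difference was taken against the higher of the probe's own value and the lowest value above background, and is given as "at least". That lowest signal was 51.1 in the library labelled Nr4a-deficient, against 73.8 in wild-type. Coordinates of probes come from the array design (mm9), and the exon or UTR under a probe is not given.

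Gene names were updated through RefSeq's table of GRCm38.p6 (27234 probes by accession, 3576 by symbol, 565 by synonym, 8054 not matched). Members kept the array's names. All detected members were named, with up to 2 genes at each end of a list past 2-fold and Rfx5, Psmb8, Psmb9, Ctss, Cd80 and Cd86. Rfxap, Rfxank, Ctsl, Siglech, Pacsin1, Ccr7, Itgam, Sirpa, Batf3, Nr4a1, Nr4a2, Nr4a3 and Foxp3 were named outside this rule. So were Eomes, Ctla4, Ikzf2, Tnfrsf18, Cr2, Bank1, Vpreb3, Ifngr1 and Ifngr2. The members, lists and tests were chosen with earlier results of these data known. Alternatives covered scale, background correction with quantile normalization (limma 3.58.1, R 4.3.3, offset 50), source table, filter and probe choice.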

Additional observations from a re-analysis of the deposited data

How the results depend on the processing

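No paired analysis was possible because each genotype had 1 library and the labels carry no replicate number. Under 8 alternatives the count of class II genes at least 2-fold higher lay between 6 and 8, and H2-Oa alone among the detected class II genes stayed under 0. The class II median was 1.16 on the scale of the spike-in RNAs and 1.06 after normexp and quantile normalization. The class I median was -0.28 on the spike-in scale, which lowered the median of all genes by 0.37 (SD 0.058 over 8 spike-ins) and turned the split of all genes past 2-fold to 560 higher and 1508 lower, against 871 and 915, so 27.1% against 48.8% of these were higher. Normexp and quantile normalization gave 565 higher and 663 lower. The class I count of lower genes was 0 where detection on both arrays was required, and its count of higher genes was 2 with no filter on background. No called member reversed. Over the alternatives, single members gave 268 values within 0.0796 of the reported one and 60 beyond it. That limit is the spot SD given above for probes with a scaled log2 level of 1 to 5, and dim probes have a larger one. The deposited table, the filters and the probe choices leave most values unchanged by design, so the 268 do not measure stability. H2-Aa lay between 1.78 and 2.16, H2-Ab1 between 1.67 and 2.07, H2-Eb1 between 1.61 and 2.05, Cd74 between 1.22 and 1.65, Ciita between 0.89 and 1.41, H2-Eb2 between 0.93 and 1.54, H2-DMb1 between 0.99 and 1.39, H2-DMb2 between 1.06 and 1.80, H2-M10.4 between -4.32 and -1.51 and H2-Q1 between 1.15 and 1.85. Leaving out probes that share 20 bases with another gene's probe, chosen after seeing the data, removed Ciita and left 7 class II genes higher. Signal over background limits Ciita, H2-Eb2, H2-DMb2, H2-Q1, H2-T3 and H2-M10.4.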

Other observations

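The genes that share the class II block with the members were read as well. Between the outermost class II probes, chr17:34232033-34481528 in mm9, lie 6 other named genes, of which 4 were above background. None was 2-fold higher or lower, with Brd2, a bromodomain protein, at 0.13, CD768206 at -0.23, Psmb9 at -0.19 and Psmb8 at -0.17. Over the whole stretch of members on this chromosome, chr17:34065963-37618439, 128 of 197 other genes were above background, with a median of -0.0051. Of these, 5 were at least 2-fold higher and 5 lower, near the share of all genes (4.7% higher and 4.94% lower). The higher genes were Ier3 (15.2-fold), Ddr1 (4.38-fold), 2410017I17Rik (at least 4.52-fold), Btnl5-ps (2.75-fold) and the complement gene C4b (2.61-fold). The lower ones were Olfr95 (7.12-fold), 5530401N12Rik (3.16-fold), the cytokine gene Lta (2.82-fold), the complement gene C2 (2.53-fold) and Aif1 (2.29-fold). Both intervals, and the genes named in them, were chosen after their values were seen.

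Other lists of cell markers also held unequal genes, beside shares of 4.7% higher and 4.94% lower over all genes. In the library labelled Nr4a-deficient 7 of 8 red cell genes were lower, and their median was -1.73. Of 8 markers of CD8 T and NK cells 7 were above background and Ncr1 was not. Klrd1, detected on 1 array, was at least 13.1-fold higher. The other 6 were within 2-fold, and Eomes alone lay under 0, at -0.38. The median of the 7 was 0.42. Of 5 Treg markers 1 was lower, Il2ra, the alpha chain of the interleukin receptor that marks Treg cells, with 16618 in the library labelled Nr4a-deficient, against 46649 in wild-type.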
